A study of Homo sapiens with 4 samples.

Results

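The chaperonins are the barrel-shaped folding machines of the cell, and their transcripts were measured here in U937 cells treated with shikonin or with solvent. The group held 10 genes: HSPD1 and HSPE1, which encode the mitochondrial chaperonin HSP60 and its lid HSP10, and TCP1, CCT2, CCT3, CCT4, CCT5, CCT6A, CCT7 and CCT8, which encode the subunits of the cytosolic ring CCT. Members were taken as the probe sets whose platform symbol was exactly one of these names. That gave 18 probe sets for 9 of the 10 genes, out of 19775 genes with a probe set of their own on the array. TCP1 was the exception, because its 3 probe sets are annotated to TCP1 and SNORA29 together. SNORA29 is a small nucleolar RNA gene that lies inside TCP1.

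U937 is an established human line from a lymphoma, often studied as a stand-in for immature monocytes. One group of cells had received shikonin, a naphthoquinone from gromwell roots, at 100 nM for 3 h. The other had received dimethyl sulfoxide (DMSO), the solvent, and the labels give no time for it. Each group had 2 samples, each hybridized to its own Affymetrix U133 Plus array of short probes, and the labels do not tell whether the cultures were separate. The p-values therefore reflect the spread between these samples, pooled in part over probe sets of similar signal, and this spread may be technical. The question is which transcripts shikonin treatment changed relative to solvent.

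The 4 arrays had median signals of 61.0 and 63.7 in shikonin and of 60.5 and 62.2 in DMSO, and their number limits the precision of every value. Of 12 monocytic marker genes, 10 had a probe set of their own, and 9 of these lay above the filter on dim signals. Their summed signals were 49321 and 52080 in shikonin, against 52350 and 54926 in DMSO. CD33 and CD68 had no probe set of their own, FCGR1A was dim, and FUT4 was called lower. MPO passed the filter but was low, with 80.5 and 40.8 in shikonin and 99.8 and 56.1 in DMSO. The T-cell marker CD3D read 38.3 and 56.2 in shikonin and 106 and 5.89 in DMSO. The monocytic sums are weighted toward the brightest markers, ELANE, CEBPA and LYZ, and do not speak for each gene of the list. No marker was at 0. The summed signals of the lists for T cells, B cells, erythroid, epithelial and fibroblast cells lay between 25.0 and 342 in shikonin and between 20.6 and 339 in DMSO.

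A chaperonin encloses an unfolded protein in a chamber, where it can fold apart from other chains. HSP60 does this in the mitochondrial matrix with HSP10 as a detachable lid, and receives proteins that have been imported through the membranes and handed on by the mitochondrial HSP70. CCT, also called TRiC, is built from related but distinct subunits with a built-in lid, and is known above all for folding actin and tubulin, which reach it with the help of the co-chaperone prefoldin. HSPD1 and HSPE1 are classical targets of heat shock factor 1 and of the mitochondrial unfolded protein response. CCT genes are active in growing cells in general.

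HSPD1 and HSPE1 lie head to head on chromosome 2, so that the region between them serves as a promoter for both. In the RefSeq promoter table (GRCh38.p14), the start site of HSPE1 lies 105 bases from the upstream start site of HSPD1, and 539 bases from a second, inner start site of HSPD1. The stretches shown are the 250 bases before the start of HSPE1 (plus strand, chr2:197500129-197500378) and the 250 bases before the inner start of HSPD1 (minus strand, chr2:197499841-197500090), because HSPE1 had the largest change of the members by their brightest probe sets and HSPD1 is its head-to-head partner. Capitals mark matches to the patterns searched on both strands: the heat shock element in its 2-unit forms GAANNTTC and TTCNNGAA and its 3-unit form GAANNTTCNNGAA, the E-box CACGTG, and the antioxidant response element TGACNNNGC.
HSPE1, before its start: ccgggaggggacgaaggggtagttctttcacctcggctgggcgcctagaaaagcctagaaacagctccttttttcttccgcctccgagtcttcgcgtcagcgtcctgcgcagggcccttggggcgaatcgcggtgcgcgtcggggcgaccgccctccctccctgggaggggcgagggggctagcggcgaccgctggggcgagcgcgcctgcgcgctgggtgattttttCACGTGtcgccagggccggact
HSPD1, before its inner start: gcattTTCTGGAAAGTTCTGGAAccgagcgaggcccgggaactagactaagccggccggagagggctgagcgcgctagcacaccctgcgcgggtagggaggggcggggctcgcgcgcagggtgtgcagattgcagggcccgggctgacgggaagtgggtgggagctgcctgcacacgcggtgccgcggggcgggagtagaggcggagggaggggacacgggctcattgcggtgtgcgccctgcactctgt
The HSPD1 stretch opens with an unbroken run of heat shock units, TTCTGGAAAGTTCTGGAA, at chr2:197500068-197500085. It lies 228 bases upstream of the inner start of HSPD1, 189 bases downstream of the outer one and 294 bases from the start of HSPE1. The 3-unit form, which contains both 2-unit forms, occurs in 0.49% of the 35116 promoter windows of 300 bases (250 before the start and 50 after it). Among the 12 windows of 9 members it occurred only in that of the inner HSPD1 start. No heat shock form of 2 or 3 units was found in the window of the outer HSPD1 start or in that of HSPE1. The outer HSPD1 window, not shown here, shares 204 bases with the HSPE1 window, and the inner one shares 0. The frequency of the E-box and its place are given next. The E-box in the HSPE1 stretch lies at -22 to -17 from its start, and is the same site that stands at -88 to -83 from the outer HSPD1 start. It occurs in 7.26% of all windows. Elsewhere among the members, a 2-unit heat shock form was found as GAAGGTTC in TCP1, GAAATTTC in CCT2 and TTCTGGAA in CCT4, against 6.77% of all windows with the form GAANNTTC and 7.74% with TTCNNGAA. The antioxidant pattern was found in CCT4 and is in 13.3% of all windows. A match is only a stretch of letters and does not show that a factor binds.

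Most chaperonin genes had more transcript after shikonin. Each gene was represented by its brightest probe set, and differences were tested with limma on log2(signal + 9.94) adjusting p-values over the 32768 probe sets above the filter by Benjamini-Hochberg. Of the 9 genes, 6 rose and none fell at an adjusted p under 0.05: HSPD1, HSPE1, CCT3, CCT4, CCT6A and CCT7. Over all 13554 genes tested, 5.05% were called higher and 6.68% lower. The members' log2 changes ran from 0.09 for CCT8 to 0.59 for HSPE1 with a median of 0.23, where the median of all genes was 0.00330. In all 9, both shikonin arrays lay above both DMSO arrays, as they did in 28.2% of all genes. All 9 members belonged to the brightest 10% of genes, where 12.5% were called higher and 5.46% lower, 52.9% had both shikonin arrays on top and the median log2 change was 0.08. Quantile normalization left 4 genes called and a median of 0.14, and without the filter on dim probe sets 2 were called. Over all genes, 690 of 13555 were called higher with quantile normalization and 350 of 19775 without the filter. With a single variance prior, limma called 0 of all 13554 genes in either direction, and so 0 of the 9 (smallest adjusted p of the 9, 0.157). Of the 9, 2 had an unadjusted p under 0.05 there. The calls thus rest on a variance prior that follows signal. They also rest on each array: without DMSO 1, DMSO 2, shikonin 1 or shikonin 2, 3, 5, 2 and 1 of the 9 genes were called, and the median change lay between 0.20 and 0.25.

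**Figure D1:**
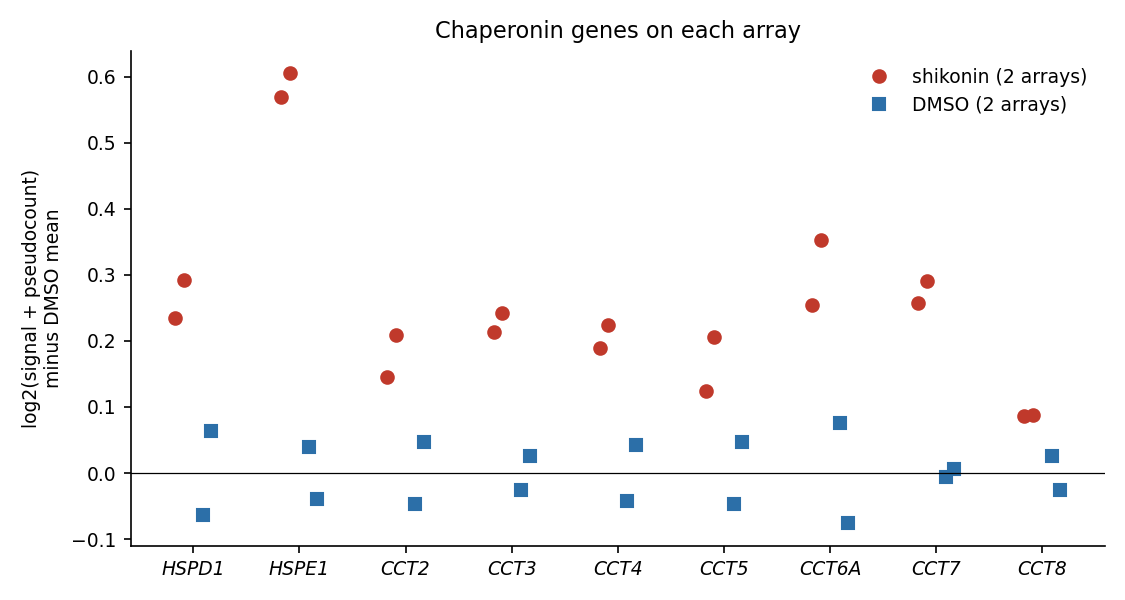
Log2(signal + pseudocount) of the 9 chaperonin genes on each of the 2 shikonin arrays (red circles) and 2 DMSO arrays (blue squares), as the difference from the DMSO mean of the gene; each gene is shown by its brightest probe set. Every red point lies above both blue points of its gene, by most on these probe sets for HSPE1 (log2 change 0.59) and by least for CCT8 (0.09).

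HSPE1, the lid of HSP60, had the largest change by brightest probe sets, although dimmer probe sets of HSPD1 (243372_at, 1.09) and CCT6A (201326_at, 0.59) changed as much or more. Its only probe set read 22860 and 23433 in the shikonin samples, against 15825 and 14991 in the DMSO samples. The groups were far apart compared with the difference between arrays of one group. The rise was 1.50-fold (log2 change 0.59, SE 0.050, limma adjusted p = 0.000225), larger than that of all but 4.62% of genes tested. HSPE1 passed the test without any one of the 4 arrays (log2 change 0.55 to 0.63).

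HSPD1, the HSP60 barrel itself, was read by 5 probe sets, 4 of them above the filter, and all 4 rose. The brightest gave 37697 and 39239 in shikonin and 30664 and 33463 in DMSO, a 1.20-fold rise (log2 change 0.26, SE 0.054, limma adjusted p = 0.0173). These are among the highest signals on the arrays, where no probe set exceeded 45934. The second, 200806_s_at, gave 29343 and 30089 in shikonin and 22586 and 23874 in DMSO (1.28-fold). The dimmer 241716_at gave 1210 and 1241 in shikonin and 938 and 765 in DMSO (1.44-fold). The largest change was that of 243372_at, with 883 and 751 in shikonin and 419 and 341 in DMSO (2.13-fold, log2 change 1.09, 95% interval 0.78 to 1.40). The 4 probe sets thus agreed in direction and not in size, and their groups did not overlap. The fifth, 243845_at, was too dim to be tested, with 4.22 and 59.2 in shikonin and 52.6 and 31.2 in DMSO, and its groups overlapped. The brightest probe set was no longer called when DMSO 1, shikonin 1 or shikonin 2 was left out (adjusted p 0.0736, 0.0553 and 0.113). The probe set 241716_at was no longer called without DMSO 2 or shikonin 2 (0.0642 and 0.0572), while 200806_s_at and 243372_at kept their calls without any one array. RefSeq names 22 pseudogenes of HSPD1 and 28 of HSPE1, so which copy a probe set reads is uncertain. For 243372_at, the dimmest of the 4 tested, the annotation named no source sequence, so what it reads could not be checked.

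How HSPE1 moved relative to HSPD1 within an array depended on the HSPD1 probe set. The log2 ratio of HSPE1 to the brightest HSPD1 probe set, set to a DMSO mean of 0, was 0.33 and 0.31 in shikonin, against 0.10 and -0.10 in DMSO. Against 200806_s_at it was 0.23 and 0.23 in shikonin and 0.079 and -0.079 in DMSO. Against 241716_at it was 0.061 and 0.059 in shikonin, within the DMSO values of -0.11 and 0.11. Against 243372_at the sign turned, with -0.63 and -0.37 in shikonin and -0.11 and 0.11 in DMSO. Relative to the 7 CCT genes with a probe set of their own, the mean of the mitochondrial pair, all by brightest probe sets, stood at 0.22 and 0.22 in shikonin and at -0.00234 and 0.00234 in DMSO. The 2 genes of the pair differed, with log2 changes of 0.59 for HSPE1 and 0.26 for HSPD1, against a CCT mean of 0.21. CCT6A (0.30) and CCT7 (0.27) changed more than HSPD1 on these probe sets, and the other CCT genes less. The within-array ratios are descriptions of single arrays and were not tested.

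**Figure D2:**
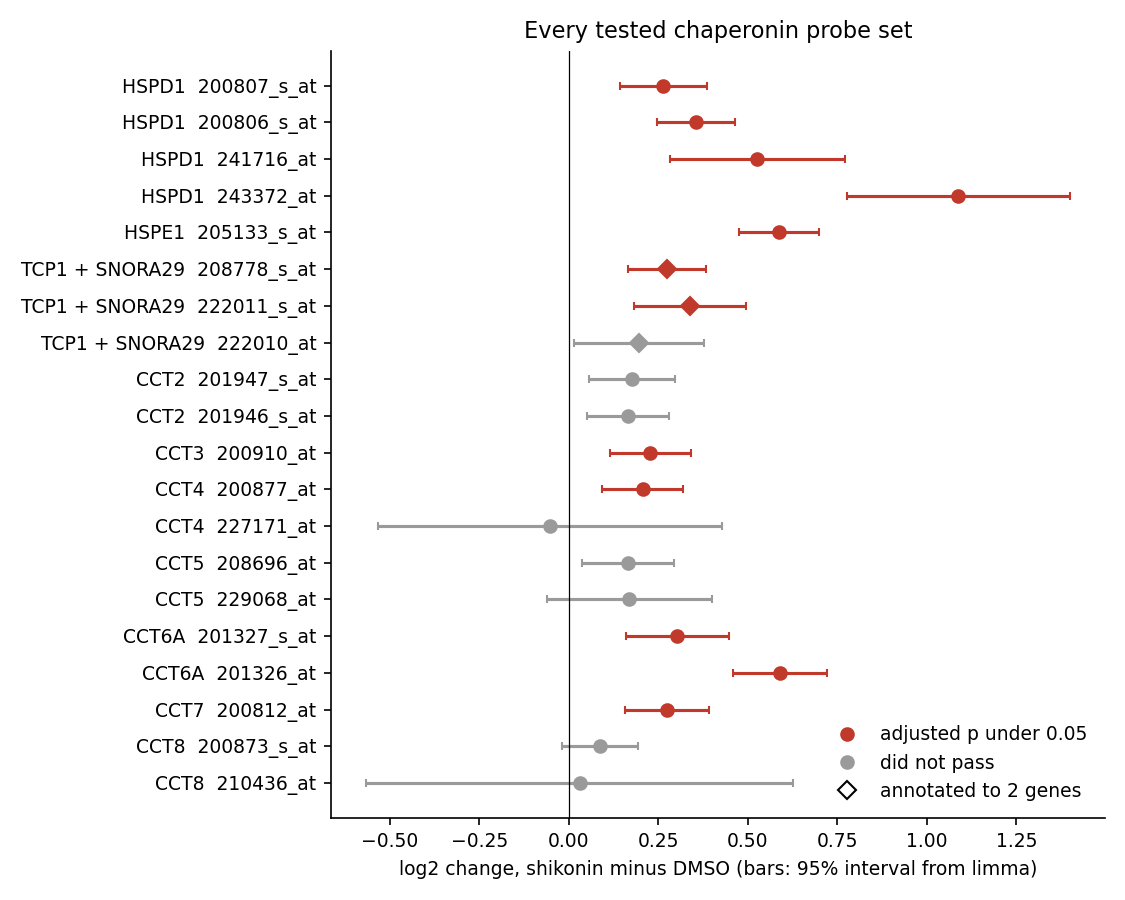
Log2 change (shikonin minus DMSO) of the 17 tested single-gene chaperonin probe sets (circles) and of the 3 probe sets that TCP1 shares with SNORA29 (diamonds), with 95% intervals from limma; red marks an adjusted p under 0.05. The 4 HSPD1 probe sets spread from 0.26 to 1.09, and those of CCT6A lie at 0.30 and 0.59, while the dim probe sets of CCT4 and CCT8 have wide intervals around 0.

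Among the 7 CCT genes with a probe set of their own, 4 rose. CCT6A, the zeta subunit, had the largest change of them. Its brighter probe set gave 13747 and 14715 in shikonin and 12144 and 10932 in DMSO, so that the groups did not overlap, although the DMSO arrays differed visibly. The rise was 1.23-fold (log2 change 0.30, SE 0.064, limma adjusted p = 0.0199), and the call went without DMSO 2 or shikonin 2 (0.0765 and 0.109). Its other probe set, 201326_at, changed more, with 8013 and 8600 in shikonin and 5472 and 5549 in DMSO (1.51-fold, adjusted p = 0.000477 by limma). That call held without any one array.

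CCT7, the eta subunit, read 8318 and 8511 in shikonin and 6923 and 6986 in DMSO, with arrays of one group close together. It rose 1.21-fold (log2 change 0.27, SE 0.052, limma adjusted p = 0.0129) and lost the call without shikonin 1 or shikonin 2 (0.0518 and 0.0785). CCT3, the gamma subunit, read 14251 and 14533 in shikonin and 12064 and 12510 in DMSO, a 1.17-fold rise. CCT4, the delta subunit, read 20220 and 20723 in shikonin and 17228 and 18266 in DMSO, a 1.15-fold rise. For both, the groups were separate but the difference was small, and the calls (limma adjusted p 0.0228 and 0.0356) went without DMSO 1, shikonin 1 or shikonin 2. Under quantile normalization CCT4 changed by 0.10 and CCT6A by 0.21 (log2), and neither was called (adjusted p 0.110 and 0.0612). A dim second CCT4 probe set read 176 and 211 in shikonin and 171 and 234 in DMSO, which overlapped.

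CCT2, CCT5 and CCT8, the beta, epsilon and theta subunits, did not pass. CCT2 read 17307 and 18083 in shikonin and 15144 and 16157 in DMSO (log2 change 0.18, 95% interval 0.06 to 0.30, limma adjusted p = 0.0728), and its second probe set changed by 0.17. CCT5 read 11952 and 12643 in shikonin and 10608 and 11330 in DMSO (log2 change 0.17, interval 0.04 to 0.29, adjusted p = 0.107). CCT8 read 19339 and 19371 in shikonin and 18550 and 17903 in DMSO. The separation of its groups was the smallest of the 9 genes, with a log2 change of 0.09, an interval of -0.02 to 0.19 and an adjusted p of 0.305. Under quantile normalization, CCT8 changed sign (-0.019). A miss of the threshold does not show that these subunits stayed level, since the intervals of CCT2, CCT5 and CCT8 overlap those of the subunits that rose.

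The alpha subunit TCP1 could be read only together with SNORA29, and these values were added after they had been seen. The brightest of the 3 shared probe sets gave 18450 and 18047 in shikonin and 14824 and 15335 in DMSO (1.21-fold, limma adjusted p = 0.00915). The next, 222011_s_at, was 1.27-fold higher (adjusted p = 0.0175), and the third, 222010_at, changed by 0.20 on the log2 scale without passing (0.175). Both shikonin arrays lay above both DMSO arrays on all 3. The first lost its call without shikonin 1, and the second without DMSO 1, shikonin 1 or shikonin 2.

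Counted by probe set, 10 of the 17 tested single-gene probe sets rose and none fell, where 3.92% of all 32768 probe sets were called higher and 5.28% lower. In 15 of the 17 the groups were separate with shikonin higher, against 27% of all probe sets. The 2 that overlapped were the dim probe sets of CCT4 and CCT8. With probe sets of 1 gene in disagreement over size, the choice of the probe set decided how large a change was read for HSPD1 and CCT6A, and not the direction among the tested probe sets.

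**Figure D3:**
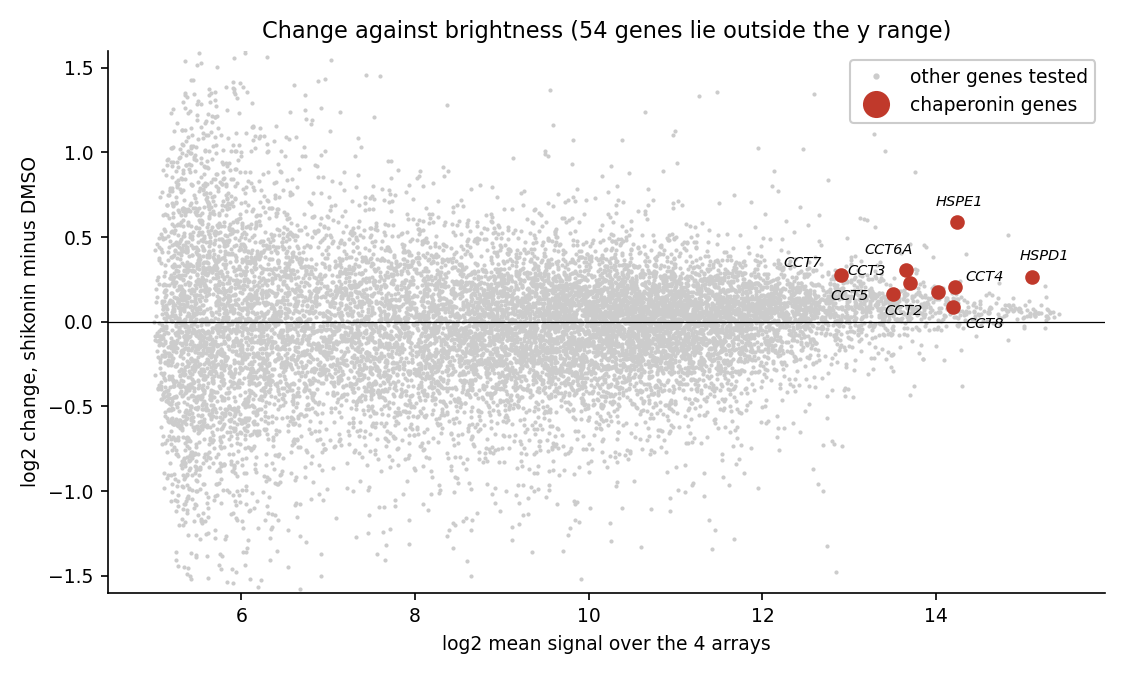
Log2 change (shikonin minus DMSO) against the log2 mean signal over the 4 arrays for the 13554 genes tested (grey) and the 9 chaperonin genes (red); 54 genes lie outside the y axis range. The chaperonin genes sit at the bright end, where the cloud itself lies slightly above 0 (median 0.08 in the brightest 10%), and HSPE1 stands above its neighbours.

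The partners of both chaperonins are described next, each list beside the 5.05% of all genes called higher and the 6.68% called lower. Many of them are bright. The brightest 10% of genes held 7 of 10 tested prefoldin and co-chaperone genes and 1 of 6 tubulin-folding cofactors. It also held 13 of 22 CCT clients and 7 of 15 mitochondrial chaperones and proteases. In that brightest 10%, 12.5% of genes were called higher and 5.46% lower, and the median log2 change was 0.08. Of 10 tested prefoldin subunits and CCT co-chaperones, 2 rose and none fell, with a median log2 change of 0.00386. TXNDC9, a thioredoxin-like protein that binds CCT, read 5428 and 5000 in shikonin and 4211 and 3897 in DMSO, a 1.29-fold rise (limma adjusted p = 0.0122). RUVBL2, an ATPase of the complexes that hold prefoldin-like proteins, was 1.17-fold higher (adjusted p = 0.0297), but its other probe sets changed by -0.24 without passing and by 0.26. TXNDC9 was not called without shikonin 1 (adjusted p 0.0701), and RUVBL2 was called in none of the 4 fits that left out 1 array. The tested prefoldin subunits VBP1, PFDN1, PFDN2, PFDN4 and PFDN5 changed by -0.12 to 0.09 on their brightest probe sets, and 2 other PFDN4 probe sets by 0.99 and -0.21. None of these passed. Of 6 tested tubulin-folding cofactors, which take tubulin over from CCT, limma called 0 and 0 had an unadjusted p under 0.05. TBCD and TBCB changed by 0.33 and 0.11 on their brightest probe sets, and another TBCD probe set by -1.25 without passing.

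Proteins that CCT folds were tested through 22 genes, of which 2 rose and none fell, with a median log2 change of 0.08. Both were beta-tubulins. TUBB4B read 14453 and 14863 in shikonin and 12223 and 12932 in DMSO (1.17-fold, limma adjusted p = 0.0307). TUBB3 read 6678 and 6890 in shikonin and 5113 and 5899 in DMSO (1.23-fold, adjusted p = 0.0328). Their _x_at probe sets can read several tubulin copies, so the gene behind each signal is uncertain. Each call went when DMSO 1, shikonin 1 or shikonin 2 was left out. ACTB, the cytoplasmic actin that is the best known client of CCT, read 39207 and 45934 in shikonin and 40590 and 42565 in DMSO (log2 change 0.03), with overlapping groups, and was named after its values were seen.

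Other mitochondrial chaperones and proteases went in both directions: of 15 tested, 1 rose and 3 fell, with a median of 0.07. HSPA9, the mitochondrial HSP70 that passes proteins on to HSP60, read 11519 and 11594 in shikonin and 9655 and 9336 in DMSO (1.22-fold, limma adjusted p = 0.00971). It lost the call without shikonin 1 or shikonin 2. GRPEL1, the nucleotide exchange factor of that HSP70, fell, with 4590 and 4337 in shikonin and 5753 and 5758 in DMSO (log2 change -0.37, adjusted p = 0.00565). Its second probe set fell by 0.60 on the log2 scale. GRPEL2, named after its values were seen, changed by -0.31 on its brightest probe set without passing (limma adjusted p = 0.0543). Its other probe set was called lower (log2 change -0.65, adjusted p = 0.0258). HTRA2, a serine protease of the space between the membranes, read 966 and 901 in shikonin and 1267 and 1374 in DMSO (log2 change -0.50, adjusted p = 0.00996), while its other probe set changed by -0.27 without passing. CLPX, the unfoldase of the matrix protease ClpXP, had a log2 change of -0.30 (adjusted p = 0.0231) that was lost without DMSO 1, shikonin 1 or shikonin 2, and its other probe set changed by -0.05. GRPEL1 and HTRA2 kept the call without any one array. TRAP1, the mitochondrial HSP90, and LONP1, a matrix protease, changed by 0.18 and 0.06 and did not pass. These 2 were named after their values were seen.

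Of 4 tested relatives of the chaperonins outside the rings, BBS10, which helps to assemble the BBSome of the primary cilium, fell, with 185 and 220 in shikonin and 319 and 374 in DMSO (log2 change -0.75, limma adjusted p = 0.0267). The call went without DMSO 2 or shikonin 1. None of the 4 was called higher, but their median log2 change was 0.18. In 3 of the 4, both shikonin arrays lay above both DMSO arrays, as they did in 28.2% of all genes.

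The chaperonin median of 0.23 can be set beside 2 other chaperone families on the same arrays. All 3 tested HSP90 genes rose, with a median log2 change of 0.27. HSP90AA1, the inducible cytosolic form, read 33127 and 35089 in shikonin and 23249 and 24515 in DMSO (1.43-fold, log2 change 0.51). The 3 other HSP90AA1 probe sets were also called higher and changed more, by 0.57, 0.65 and 1.02 on the log2 scale. HSP90B1 of the endoplasmic reticulum and HSP90AB1, the constitutive cytosolic form, were 1.21-fold and 1.17-fold higher. HSP90B1 was not called in any fit that left out 1 array, and HSP90AB1 only in the one without DMSO 2. The list of HSP70 and HSP110 genes did not hold HSPA1A, HSPA1B or HSPA8. Of its 10 tested genes, 5 rose and none fell by their brightest probe sets, with a median of 0.46. They ran from HSPA5 at 1.36-fold and HSPA4L, an HSP110 relative, at 1.89-fold to HSPH1 at 3.07-fold and HSPA6 at 14.6-fold. The fifth was HSPA1L, named after its value was seen, which was 1.97-fold higher from a low signal, a call that went when DMSO 1, DMSO 2 or shikonin 2 was left out. HSPA14 and HSPA4, named after their values were seen, did not pass on their brightest probe sets (log2 change -0.01 and 0.24). Each had a dimmer probe set that was called higher (0.51 and 0.39). Differences between the families were not tested.

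**Figure D4:**
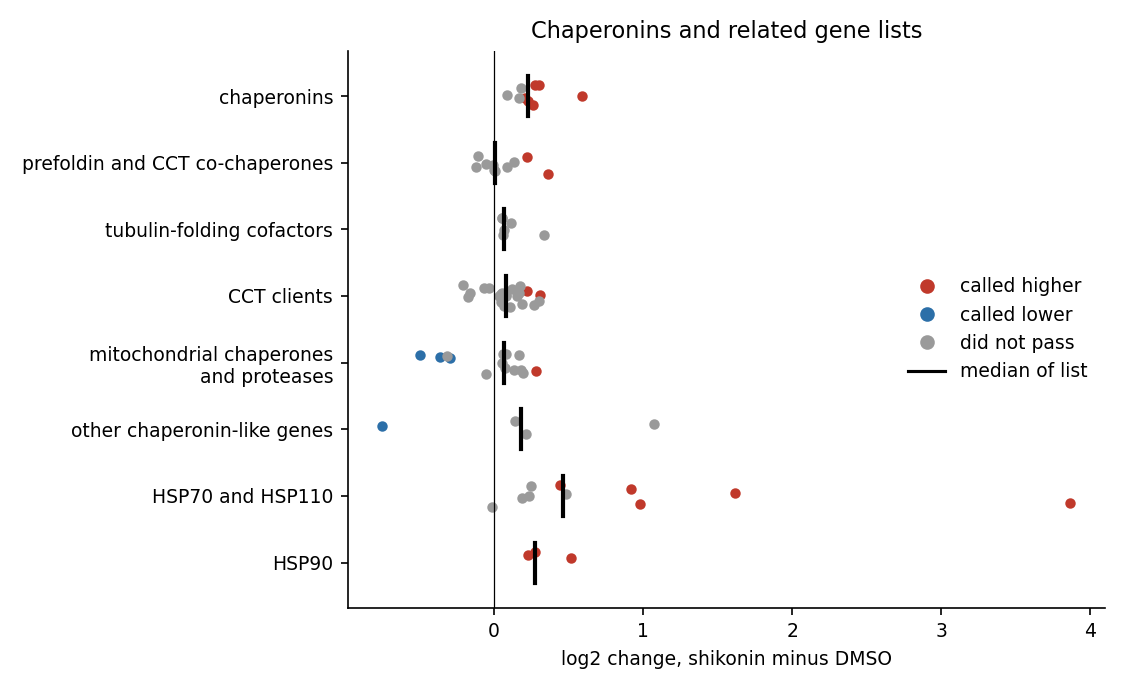
Log2 change (shikonin minus DMSO) of the genes of each list, 1 point a gene by its brightest probe set, with red for genes called higher, blue for genes called lower, grey for those that did not pass and a bar at the median. The chaperonins lie between 0.09 and 0.59, HSP90 between 0.23 and 0.51, while the mitochondrial list has points on both sides of 0 and HSPA6 lies at 3.87.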

How the data were processed

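Total RNA of 2 shikonin and 2 DMSO samples was labelled with biotin by one-cycle amplification from the 3' end, per the labels' protocols. The authors deposited linear probe set intensity values; the software for summarising probes was not given in the sources used here. Trimmed of 2% at each end, every array had a mean of 500.1, so changes are relative to the rest of the array. Probe sets were named through the platform annotation (41097 with 1 symbol, 1801 with several, 11777 with none). All columns were used.

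Values were converted to log2(signal + 9.94), the pseudocount being the 20th percentile of all values, with no further normalization. Control probe sets and the dimmest 40% were left out. Differences were tested with limma 3.58.1 in R 4.3.3 (lmFit, eBayes with trend, 2 residual and 7.10 prior degrees of freedom), Benjamini-Hochberg adjusted, threshold 0.05. The procedure was tested on simulated data whose noise followed signal, as the variance prior assumes. That test therefore cannot decide whether this prior suits the real arrays. Named genes were all members and, per related list, up to 4 called genes with the smallest p, or the leading 2 where none was called. Members and lists were chosen with earlier results of these data known. Alternatives changed the pseudocount, filter, normalization, variance prior, probe set choice, block and arrays used. Same-numbered samples did not deviate together (correlation 0.02).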

Additional observations from a re-analysis of the deposited data

How the results depend on the processing

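The count of 6 chaperonin genes called higher was 2 with no filter on dim probe sets, 0 with a single variance prior, 8 with the replicate block, and 1 to 5 when 1 array was left out. The 10 chaperonin probe sets called higher became 6 of 18 without the filter, 0 with a single prior, 6 of 10 without _x_at and _s_at probe sets, 13 with the replicate block, and 4 to 8 when 1 array was left out. No member was called lower under any alternative. Over all genes, the number called higher was 350 of 19775 with no filter, 0 of 13554 with a single prior and 1238 of 13554 with the replicate block. The median log2 change of 0.23 shrank to 0.14 under quantile and to 0.16 under cyclic loess normalization, which was added after the brightest genes were seen to be shifted upward, and lay between 0.20 and 0.25 with 1 array left out. Quantile normalization turned CCT8 to -0.019 (adjusted p 0.828). HSPE1 was called in 13 of 14 alternatives, CCT7 in 12 of 15, HSPD1, CCT3 and CCT6A in 10 each, CCT4 in 7, CCT2 (1 of 14) and CCT5 in 1 each, by the replicate block (adjusted p 0.00344 and 0.0111), and CCT8 in 0. What a shared sample number means is not stated, so the replicate block is not a paired design. With 1 array left out, the lone sample of its group was assumed to vary like the others. The causes of the moved values were not tested. Some alternatives also differ in the numbers of probe sets or arrays that enter the fit. HSPE1 and CCT2 had no member probe set left without _s_at probe sets. HSPD1 was near the top of the signal range, and whether this limits its fold was not tested.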
